A study of Homo sapiens with 4 samples.

Results

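The WNT pathway genes examined here were WNT10A, LRP6, RNF43, ZNRF3, AXIN1, AXIN2, APC, CTNNB1, LEF1 and TCF7L2, a list of 10 genes that was matched by Entrez identifier and gene symbol in the expression tables of all 4 libraries. They were 10 of 19801 genes in those tables, and all 10 reached 1 RPKM (read number scaled to transcript length and to the reads of the library) in some library, as 14626 genes did. The libraries came from LNCaP, a line of human prostate cancer cells that responds to androgen. The cells received either the AR1-651 plasmid or its empty vector for 24 h and were then kept for 12 h with or without AIL (ailanthone), a plant-derived small molecule that the study examined in prostate cancer cells. The 4 groups were therefore empty vector, empty vector with AIL, AR1-651, and AR1-651 with AIL, each with 1 library from a transfected population of cells, and no group had a replicate. Each comparison below is one of 2 libraries and not of replicated conditions, so no test was possible and no p-value is given. Differences in the fraction of cells transfected cannot be told apart from differences in each cell.

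Canonical WNT signalling turns on the fate of beta-catenin. Without a WNT ligand, a destruction complex built on AXIN and APC marks beta-catenin for degradation; when a ligand binds a Frizzled receptor and the co-receptor LRP5 or LRP6, that complex is held at the membrane, beta-catenin accumulates, and it joins TCF/LEF proteins on DNA to activate target genes. Several targets, AXIN2, RNF43 and ZNRF3 among them, encode inhibitors of the pathway itself. In the prostate, WNT signals act in epithelial budding and growth.

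All 8 prostate luminal markers checked had an RPKM of at least 1 in every library. Their summed RPKM was 1652 with empty vector, 1609 with empty vector and AIL, 3821 with AR1-651 and 1944 with AR1-651 and AIL. Among them HOXB13 alone was lower with AR1-651 than with empty vector, at 141 against 236 RPKM. Of 8 markers of basal, stromal, endothelial and leukocyte cells, 6 were analysed here, and they summed to between 4.99 and 11.7 RPKM. The stromal markers ACTA2 (1.51 to 8.49 RPKM) and COL1A1 (1.75 to 4.59) made up most of this and exceeded 1 RPKM in every library. The basal keratin KRT14 was at 0 in both empty vector libraries, 0.11 with AR1-651 and 0.21 with AR1-651 and AIL. These values are near the floor and below 1 RPKM, so no direction is read from them. The androgen-regulated genes KLK3, KLK2 and TMPRSS2 were all highest in the library labelled AR1-651, KLK3 (prostate-specific antigen) at 1442 against 287 RPKM with empty vector, KLK2 at 198 against 14.3 and TMPRSS2 at 276 against 36.7. Group names below are those of the labels, and every direction drawn for AR1-651 rests on them. The depth, estimated from the smallest steps in the RPKM values, was between 4840000 and 5680000 reads per library. The 95% intervals quoted below are exact intervals from read numbers estimated with that depth and 1 transcript length per gene. They cover counting error only and say nothing about the spread between cultures.

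The promoters of WNT10A, LEF1 and RNF43 are shown because WNT10A was the only one of the 10 genes at its highest in the AR1-651 library, while LEF1 and RNF43, a partner of beta-catenin and a receptor ligase, were lower there than with empty vector. The motifs searched on both strands were the TCF core CTTTG and the GC box GGGCGG. RefSeq (GRCh38.p14) gave 11 windows for 7 of the 10 genes, namely WNT10A, AXIN1, APC, CTNNB1, LEF1, TCF7L2 and RNF43. The 250 bases before each start site are printed 5′ to 3′ on the strand of the gene, with CTTTG, or its reverse complement CAAAG, in capitals. WNT10A lies on the forward strand, and LEF1 and RNF43 lie on the reverse strand. RefSeq start sites need not be the ends of the GENCODE gene spans given below. The WNT10A and LEF1 windows lie inside those spans, before a start downstream of the outermost one, and that of RNF43 crosses the end of its span.
WNT10A, chr2:218880602-218880851: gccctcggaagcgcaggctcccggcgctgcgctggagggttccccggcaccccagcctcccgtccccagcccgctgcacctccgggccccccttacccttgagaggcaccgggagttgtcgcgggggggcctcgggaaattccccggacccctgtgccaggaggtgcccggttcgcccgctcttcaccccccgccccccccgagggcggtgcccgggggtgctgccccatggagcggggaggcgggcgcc
LEF1, chr4:108166302-108166551: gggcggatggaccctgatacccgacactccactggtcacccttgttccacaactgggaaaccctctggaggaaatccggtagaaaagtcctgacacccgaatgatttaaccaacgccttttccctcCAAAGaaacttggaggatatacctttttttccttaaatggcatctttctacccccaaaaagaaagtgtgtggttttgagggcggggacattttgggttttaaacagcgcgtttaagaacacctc
RNF43, chr17:58417535-58417784: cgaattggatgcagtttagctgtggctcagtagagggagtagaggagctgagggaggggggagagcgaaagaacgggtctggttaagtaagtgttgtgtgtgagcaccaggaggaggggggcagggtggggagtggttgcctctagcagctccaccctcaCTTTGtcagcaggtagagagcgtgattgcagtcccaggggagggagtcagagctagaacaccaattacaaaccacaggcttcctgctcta

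The WNT10A window was 77.6% G or C and held 2 GC boxes and no TCF core. The LEF1 window, 47.6% G or C, had CAAAG starting 124 bases before the start site and 2 GC boxes. The RNF43 window, 56% G or C, had CTTTG starting 90 bases upstream and no GC box. The TCF core was in 5 of the 11 windows in all, those of LEF1, both of RNF43 and 2 of the 3 of TCF7L2, the last with 4 matches. Of 35116 RefSeq windows of the same length, 42.1% held the TCF core and 42.6% the GC box on either strand, so single matches are common. Such a match describes letters only, and the lack of one says nothing about binding.

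The first question was how the WNT pathway genes differed between AR1-651 and empty vector cells. In the AR1-651 library 8 of the 10 genes were lower, as were 67.0% of all genes, and 2, WNT10A and CTNNB1, were higher. Calls were made on log2(RPKM + 1), which understates the change of genes with low values, at a threshold of 2-fold. By that threshold LRP6, RNF43, APC and TCF7L2 were lower, which is 4 of 10 beside 11.7% of all 14626 genes, and 0 of 10 were higher beside 4.01% of all genes. The median change of the 10 genes was -0.79, against -0.30 for all genes. Over all genes the median change with AR1-651 was lower the longer the transcripts were. Once the trend across all genes with transcript length and GC content was removed, 0 of the 10 genes were called lower and 1, WNT10A, was called higher. No counting interval of the 10 ratios included 1 in this comparison. Those intervals use the longest matched transcript of each gene, and a shorter one would give fewer reads and wider intervals. Matched transcripts run from 1472 to 3477 nt for LEF1, 2667 to 6851 nt for ZNRF3 and 3602 to 10701 nt for APC.

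**Figure D1:**
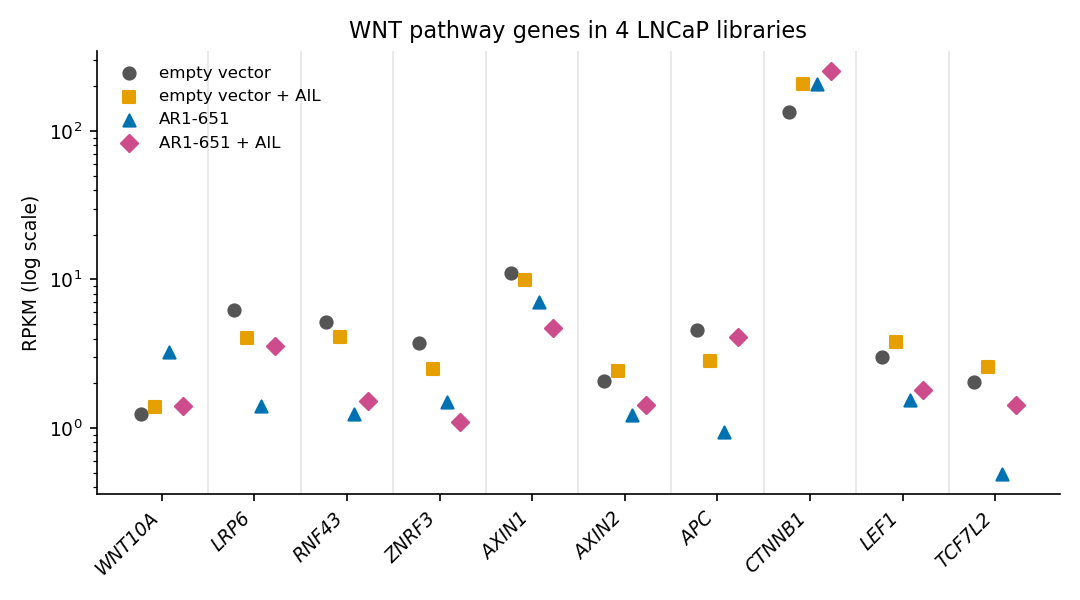
RPKM of the 10 WNT pathway genes on a log scale, with 1 point per library and symbols for the 4 libraries (n = 1 each, no error bars). CTNNB1 stands far above the other genes at 134 to 253 RPKM, and WNT10A is the gene whose AR1-651 library is the highest point.

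WNT10A encodes a secreted ligand that acts through beta-catenin and is best known for its part in the development of teeth, hair and other skin appendages. Its RPKM was 1.24 with empty vector, 1.39 with empty vector and AIL, 3.27 with AR1-651, and 1.40 with AR1-651 and AIL, from about 16, 17, 46 and 20 reads. The AR1-651 library stood above the other 3, which lay between 1.24 and 1.40 RPKM. The ratio of AR1-651 to empty vector was 2.64 (95% counting interval 1.47 to 5.01), and the change in log2(RPKM + 1) was 0.93, just short of the 2-fold threshold on that scale. Of all genes, 95.1% had a lower change in this comparison, and of the genes of like transcript length 97.6% did. The study had listed WNT10A on these same libraries as a gene higher with AR1-651 and lower again with AIL, so neither direction is independent evidence.

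With AIL the WNT10A level in AR1-651 cells was 2.34 times lower (1.37 to 4.22), a log2 change of -0.83. In empty vector cells it differed by 0.09 on the log2 scale, at a ratio of 1.12 (0.531 to 2.36), a difference that was not detectable at this depth. The AIL libraries of AR1-651 and empty vector cells had nearly the same WNT10A level, with a ratio of 1.01 (0.499 to 2.04) and a log2 change of 0.01, which was 0.55 with the length and GC trend removed. WNT10A lies on chromosome 2 at 218880363 to 218899581 on the forward strand (GENCODE release 29, GRCh38).

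LRP6, on chromosome 12 at 12116025 to 12267012, encodes the co-receptor that binds WNT together with a Frizzled protein. Its RPKM was 6.27 with empty vector, 4.04 with empty vector and AIL, 1.40 with AR1-651, and 3.54 with AR1-651 and AIL. The AR1-651 library was the lowest of the 4 and that of untreated empty vector cells the highest. LRP6 was 4.48 times lower with AR1-651 than with empty vector (3.47 to 5.78), a log2 change of -1.60 and the lowest of the 10, and -0.95 after the length and GC trend was removed. Among AR1-651 cells it was 2.53 times higher with AIL (1.92 to 3.30), a log2 change of 0.92 that was 0.27 without the trend, whereas among empty vector cells it was 1.55 times lower with AIL (1.3 to 1.86).

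RNF43 and ZNRF3 encode related membrane ubiquitin ligases that remove Frizzled and LRP6 from the cell surface and so limit the response to WNT. RNF43 (chromosome 17, 58352500 to 58417595) had an RPKM of 5.20, 4.13, 1.25 and 1.52 in the order empty vector, empty vector with AIL, AR1-651, and AR1-651 with AIL. Both AR1-651 libraries were below both empty vector libraries. RNF43 was 4.16 times lower with AR1-651 in untreated cells (2.90 to 6.13) and 2.72 times lower among the AIL-treated cells (1.90 to 3.86), where it was the only member called. Its log2 change of -1.46 in untreated cells was below those of all but 1.24% of genes of like length, and became -0.90 without the trend.

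ZNRF3 (chromosome 22, 28883592 to 29057487) had an RPKM of 3.72, 2.50, 1.5 and 1.10 in that order. Its libraries showed the same split, with both AR1-651 values below both empty vector values. Some other pathway genes, DVL1, DVL3 and TLE3 among them, showed it too, and others, such as JAG1, did not. AXIN1, AXIN2, LEF1, LRP6 and TCF7L2 showed the split as well. In untreated cells 67.0% of all genes were lower with AR1-651. The share of all genes with such a split was not counted, so it is given as a description only. ZNRF3 was 2.48 times lower with AR1-651 (1.80 to 3.45), a log2 change of -0.92, which fell short of the threshold. A median of -0.69 for genes of like length stood beside it, 31.4% of those genes had a lower change, and without the trend the ZNRF3 change was -0.27. With AIL it was 1.49 times lower in empty vector cells (1.12 to 1.99) and 1.36 times lower in AR1-651 cells (0.900 to 2.07), the latter an interval that includes 1.

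**Figure D2:**
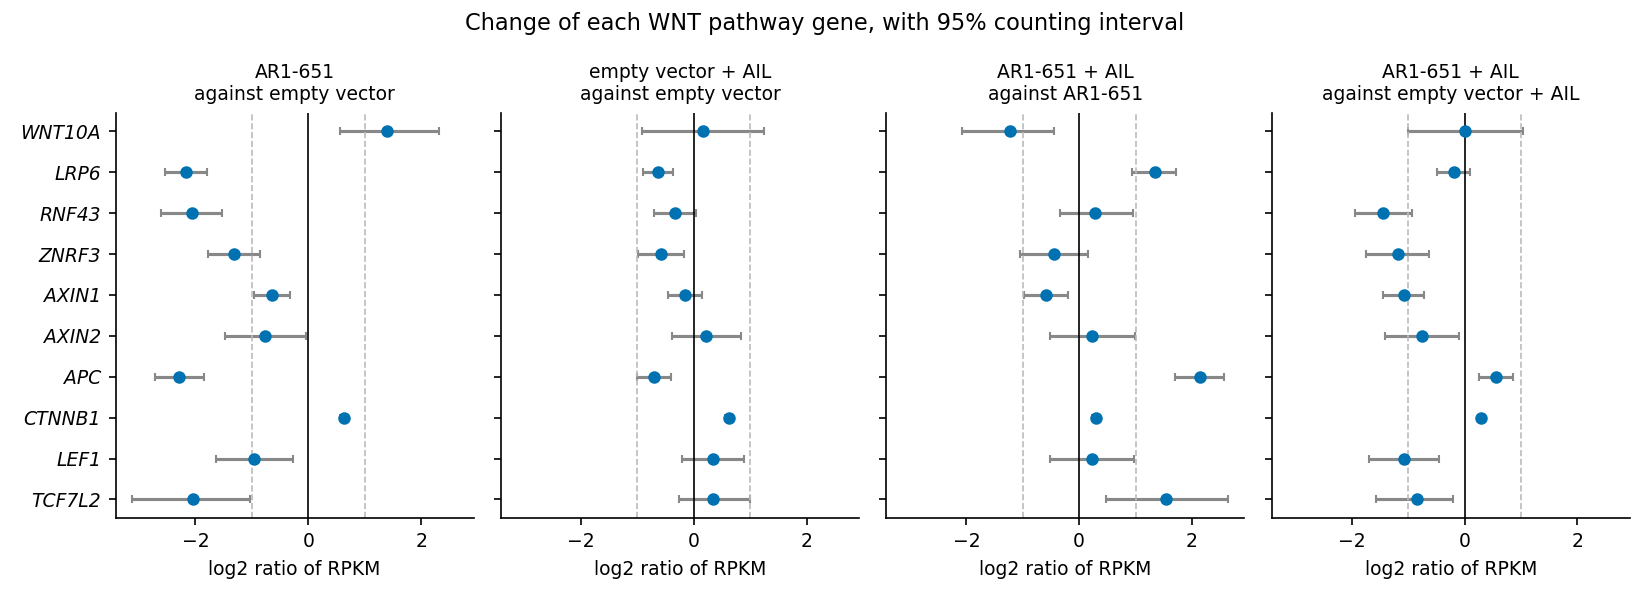
Log2 ratio of RPKM for each of the 10 genes in the 4 comparisons of libraries, with bars for the 95% counting interval and dashed lines at 2-fold on the plain ratio. With AR1-651 against empty vector 8 genes lie to the left of 0 and WNT10A and CTNNB1 to the right, while AIL among empty vector cells leaves 6 of 10 intervals across 0.

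AXIN1, the scaffold on which the destruction complex assembles, is on chromosome 16 at 287440 to 352673. Its RPKM was 11.1, 9.97, 7.08 and 4.72 in the order used above, so both AR1-651 values lay below both empty vector values. The value with AR1-651 was 1.57 times lower than with empty vector (1.26 to 1.95), a log2 change of -0.58 that came to 0.01 once the length and GC trend was removed, with the sign reversed. With AIL, AXIN1 was 1.5 times lower in AR1-651 cells (1.15 to 1.96) and 1.12 times lower in empty vector cells (0.906 to 1.37), the latter within counting error.

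AXIN2, which encodes a related scaffold and is a widely used readout of beta-catenin activity, is on chromosome 17 at 65528563 to 65561647. Its RPKM was 2.07, 2.42, 1.22 and 1.43, again lower in both AR1-651 libraries. It was 1.70 times lower with AR1-651 (1.03 to 2.79), and its log2 change of -0.47 was close to the median of -0.48 for genes of like length and became -0.04 without the trend. The counting intervals of its ratios with AIL included 1 in both empty vector cells (0.765 to 1.79) and AR1-651 cells (0.698 to 1.99).

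APC, the tumour suppressor that holds beta-catenin in the destruction complex, is on chromosome 5 at 112707498 to 112846239. Its RPKM was 4.59 with empty vector, 2.82 with empty vector and AIL, 0.94 with AR1-651, and 4.13 with AR1-651 and AIL. The AR1-651 library was low and the other 3 were between 2.82 and 4.59. APC was 4.88 times lower with AR1-651 (3.62 to 6.60), with a log2 change of -1.53 that was -0.85 without the trend. It was the one member called higher with AIL in AR1-651 cells, by 4.39 times (3.26 to 5.94), a log2 change of 1.40, and 0.71 without the trend. In empty vector cells it was 1.63 times lower with AIL (1.32 to 2.01).

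CTNNB1, which encodes beta-catenin, is on chromosome 3 at 41194741 to 41260096. Its RPKM was 134 with empty vector, 207 with empty vector and AIL, 207 with AR1-651, and 253 with AR1-651 and AIL. The untreated empty vector library was the lowest and the library with both AR1-651 and AIL the highest. The ratio was 1.54 both for AR1-651 against empty vector (1.47 to 1.63) and for AIL in empty vector cells (1.46 to 1.63), and 1.22 for AIL in AR1-651 cells (1.17 to 1.28), where the log2 change of 0.29 was 0.04 without the length and GC trend. Between 2367 and 4992 reads per library lay behind these values, the most of the 10 genes. The change with AR1-651 was above that of 95.8% of genes of like length. These are RNA levels, and beta-catenin protein is controlled mainly by its degradation.

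LEF1 and TCF7L2 encode DNA-binding partners of beta-catenin. LEF1 (chromosome 4, 108047545 to 108168956), whose promoter window held the TCF core, had an RPKM of 3.0, 3.79, 1.54 and 1.80 in the order above. Both AR1-651 libraries were below both empty vector libraries. LEF1 was 1.95 times lower with AR1-651 in untreated cells (1.20 to 3.11) and 2.11 times lower among AIL-treated cells (1.37 to 3.23), with log2 changes of -0.66 and -0.77. Of genes of like length, 29.1% had a lower change with AR1-651 in untreated cells, and without the trend that of LEF1 was -0.36.

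TCF7L2 (chromosome 10, 112950250 to 113167678) had an RPKM of 2.03, 2.56, 0.49 and 1.43. The AR1-651 library was the lowest and rested on about 11 reads. TCF7L2 was 4.14 times lower with AR1-651 than with empty vector (2.04 to 8.74), a log2 change of -1.02 that was -0.74 without the trend, and 13.1% of genes of like length had a lower one. It was 2.92 times higher with AIL among AR1-651 cells (1.39 to 6.23), a log2 change of 0.71, or 0.42 without the trend. TCF7L2 has 13 RefSeq transcripts with lengths from 1541 to 4000 nt, so the read numbers behind its intervals are less certain than those of WNT10A, which has 1 transcript.

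The second question was what AIL did in each background. In empty vector cells 0 of the 10 genes were called in either direction, beside 9.53% of all genes higher and 9.03% lower, and their median log2 change was -0.03 against -0.02 for all genes. In AR1-651 cells 1 gene, APC, was called higher beside 14.9% of all genes and 0 were called lower beside 5.74%, with a median of 0.15 against 0.13 for all genes. These counts came to no larger share than among all genes. The single values spread widely, from -0.83 for WNT10A to 1.40 for APC. The untreated AR1-651 library is shared by this comparison and that of AR1-651 with empty vector and enters them on opposite sides, so a gene extreme in that library moves both ways. The untreated empty vector library is likewise shared by the comparisons of AR1-651 and of AIL with it.

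Among the AIL-treated cells AR1-651 was set against empty vector. Here 1 of 10 genes, RNF43, was called lower beside 3.56% of all genes and 0 were called higher beside 1.46%, with a median log2 change of -0.52 against -0.03 for all genes. Lower values were found for 7 genes and for 51.9% of all genes, and higher ones for APC, CTNNB1 and, by 0.01 on the log2 scale, WNT10A. After the length and GC trend was removed, 0 members were called in this comparison. In the 6 equal groups of genes by transcript length the all-gene median here lay between -0.08 and 0.02.

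The 10 genes differ in transcript length, from 2547 nt for WNT10A to 10701 nt for APC, and in the comparison of AR1-651 with empty vector all genes differed with length. They also differ in transcript GC content, from 39.6% for APC and 40.2% for LRP6 to 63.2% for AXIN1 and 65.4% for WNT10A. The trend removed holds both traits, and their parts in it were not separated. Percentages among genes of like length take no account of GC. With the genes in 6 equal groups from the shortest to the longest transcripts, the median log2 change with AR1-651 was 0.17, -0.02, -0.23, -0.36, -0.48 and -0.69. Set against the median of its own length group, the change was above it for WNT10A, CTNNB1 and AXIN2 and below it for the other 7. Ribosomal protein genes, which are short and very abundant, took 32.9% of the summed RPKM in the AR1-651 library and 22.2% to 25.4% in the others. The part that library composition or RNA length played in the WNT gene values was not tested. When libraries were scaled by median ratios in place of total reads, the median of all genes with AR1-651 moved by 0.22, from -0.30 to -0.09, and the share of all called genes that were higher went from 25.6% to 56.6%. LRP6, RNF43, APC and TCF7L2 then had log2 changes of -1.42, -1.29, -1.37 and -0.91, and WNT10A had 1.12. All 10 genes kept their sign under this scaling. For AIL in AR1-651 cells the same scaling moved the all-gene median by -0.15 and the share that were higher from 72.2% to 55.6%.

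**Figure D3:**
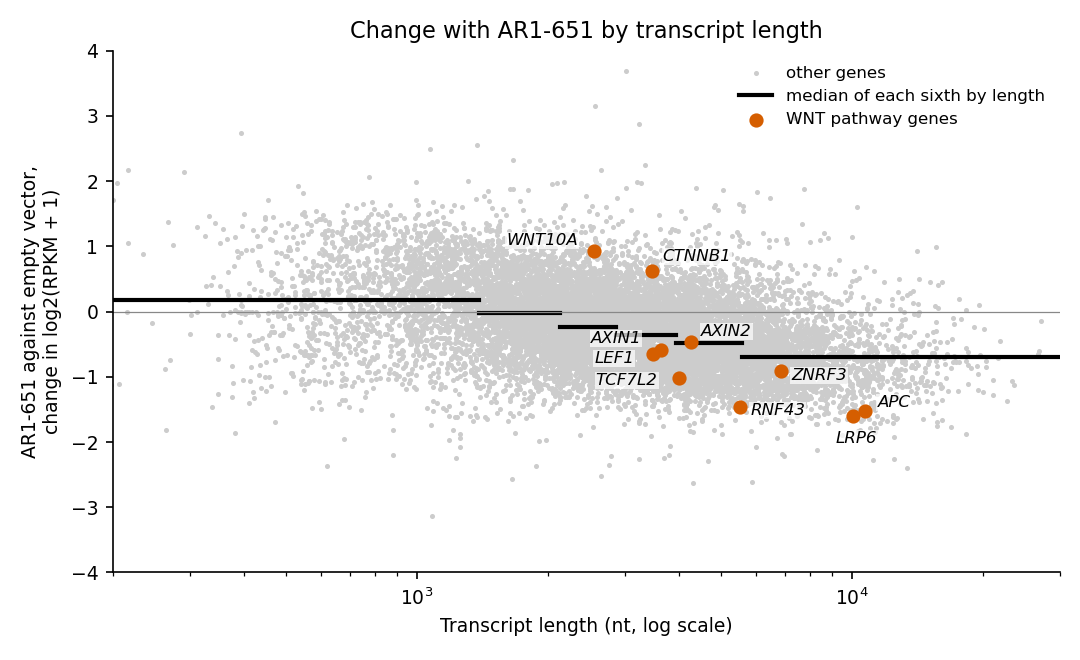
Change in log2(RPKM + 1) for AR1-651 against empty vector by transcript length (log scale), with the 10 WNT pathway genes labelled, other genes in grey and a bar for the median of each of 6 equal groups by length. The bars descend from 0.17 to -0.69 as length grows, WNT10A and CTNNB1 lie above the bars, LRP6, APC and RNF43 lie well below them, and 393 of 14005 genes fall outside the plotted range.

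The other ligands give the setting of WNT10A. Of 19 WNT ligand genes 13 were analysed here, and 7 reached 1 RPKM in some library. WNT7B was the most abundant in every library, at 19.5 RPKM with empty vector, 11.5 with empty vector and AIL, 12.0 with AR1-651, and 8.25 with AR1-651 and AIL. WNT5A, which mostly signals without beta-catenin, had 13.9, 5.0, 3.89 and 2.54 RPKM, and was called lower both with AR1-651 (log2 change -1.61) and with AIL in empty vector cells (-1.31). WNT10B, the closest relative of WNT10A, had 5.22, 2.62, 3.20 and 0.81 RPKM and was called lower with AIL in AR1-651 cells (-1.21) and, among AIL-treated cells, with AR1-651 (-1.0). WNT2B was at 1.19 RPKM with empty vector and at 0.24 or below elsewhere, and passed the filter through that library alone, so its call as lower with AIL in empty vector cells (-1.02) was bound to that direction. Summed over ligands, the RPKM was 49.0, 30.1, 25.9 and 18.5. WNT10A made up 2.53%, 4.62%, 12.6% and 7.59% of that sum and held rank 6, 6, 3 and 5 among the ligands. It was the only one of the 7 ligands that was higher in the AR1-651 library than in that of empty vector. Of all 14626 genes 4707 were higher there. For WNT2B the lower value was fixed by the filter, and the study had listed WNT10A for its rise in these same libraries.

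**Figure D4:**
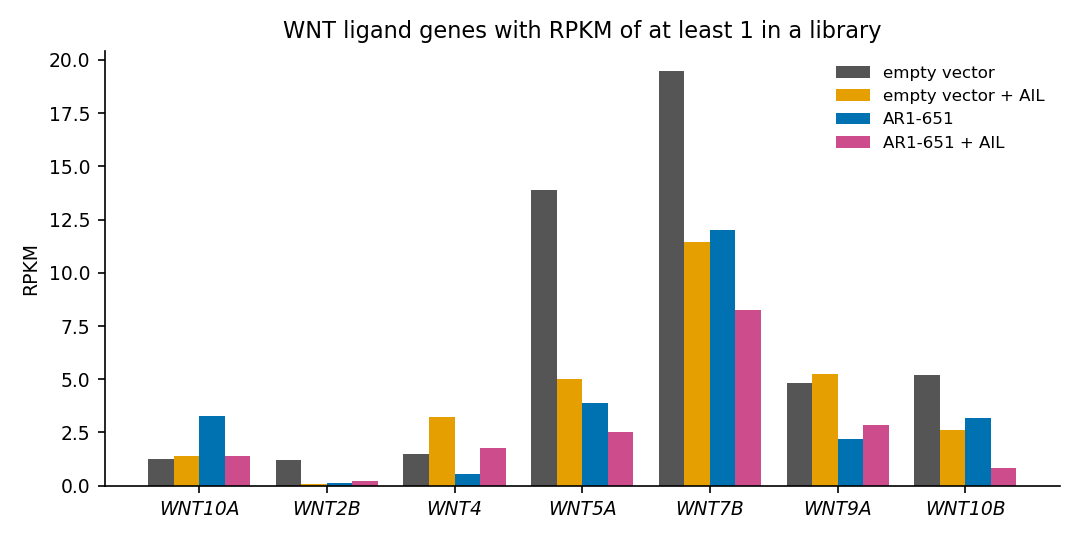
RPKM of the 7 WNT ligand genes that reached 1 RPKM in some library, with 1 bar per library from 0 (n = 1 each, no error bars). WNT7B and WNT5A are tallest with empty vector, and WNT10A is the ligand whose AR1-651 bar, at 3.27, is the tallest of its 4.

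A further 103 genes of the pathway were listed by role. Of these 85 were analysed here and 63 passed the filter. With AR1-651 against empty vector 11 of the 63 (17.5%) were called lower, beside 11.7% of all genes, and 0 were called higher, beside 4.01%. Their median log2 change was -0.60 against -0.30 for all genes, and 2 were called lower after the length and GC trend was removed. With AIL in empty vector cells 10 (15.9%) were lower and 1 higher, beside 9.03% and 9.53% of all genes, with a median of -0.06 against -0.02. With AIL in AR1-651 cells 6 (9.52%) were lower and 3 (4.76%) higher, beside 5.74% and 14.9%, with a median of 0.11 against 0.13. Among AIL-treated cells AR1-651 had 5 (7.94%) lower and 0 higher, beside 3.56% and 1.46%, with a median of -0.37 against -0.03, and 0 were called lower there after the trend was removed.

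Among receptors, LRP5, the sister co-receptor of LRP6, had an RPKM of 31.4 with empty vector, 10.95 with empty vector and AIL, 12.2 with AR1-651, and 4.56 with AR1-651 and AIL. It was called lower in all 4 comparisons, with log2 changes of -1.29 for AR1-651, -1.44 and -1.25 for AIL in empty vector and AR1-651 cells, and -1.10 for AR1-651 among AIL-treated cells. In AR1-651 cells AIL thus went with a lower LRP5 and a higher LRP6 value. The LRP6 change of 0.92 was not called and was 0.27 with the length and GC trend removed. The Frizzled receptor gene FZD2 was called lower with AR1-651 (-1.26) and with AIL in empty vector (-1.83) and AR1-651 cells (-1.21). FZD3 was lower with AR1-651 (-1.01), while FZD9 (-1.08) and the co-receptor gene PTK7 (-1.06) were lower with AIL in empty vector cells.

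In the cytoplasm, the casein kinase gene CSNK1G2 was lower with AIL in both empty vector (-1.30) and AR1-651 cells (-1.42), and CSNK1G3 was lower with AR1-651 (-1.22) and with AIL in empty vector cells (-1.02). GSK3B, the kinase that phosphorylates beta-catenin in the destruction complex, was lower with AR1-651 (-1.25). TNKS and TNKS2, the tankyrases that mark AXIN for degradation, were higher with AIL in AR1-651 cells (1.28 and 1.5). In the nucleus, BCL9 and BCL9L, co-activators that bind beta-catenin, were each lower with AR1-651 (-1.16 for both), as were the co-repressor TLE3 (-1.23) and the acetyltransferase CREBBP (-1.11). Among AIL-treated cells BCL9L (-1.34), TLE2 (-1.19) and TLE3 (-1.0) were lower with AR1-651. None of these genes was called higher with AR1-651.

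Among the common targets, MYC had an RPKM of 63.0 with empty vector, 9.83 with empty vector and AIL, 26.5 with AR1-651, and 7.86 with AR1-651 and AIL. It was lower with AR1-651 (-1.22) and with AIL in both backgrounds (-2.56 and -1.64). KLF5, a transcription factor of epithelial cells, had 1.20, 4.20, 0.70 and 4.37 RPKM and was higher with AIL in both backgrounds (1.24 and 1.66). APCDD1, an inhibitor of WNT signalling at the membrane, had 6.84, 1.92, 7.12 and 2.98 RPKM and was lower with AIL in both backgrounds (-1.42 and -1.03). The targets thus had no common direction with AIL. AXIN2, LEF1, RNF43 and ZNRF3, the 4 targets among the 10 genes, were lower in the AR1-651 library than with empty vector, as 67.0% of all genes were.

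The genes whose profile over the 4 libraries was most like that of WNT10A were ANAPC11, RHAG, ADI1, CDC6 and EEF1D, by Euclidean distance of the log2(RPKM + 1) values centred on each gene's mean (0.0562, 0.0695, 0.0703, 0.0849 and 0.0927). ANAPC11, a subunit of the anaphase-promoting complex, had an RPKM of 150, 168, 298 and 167 in the order empty vector, empty vector with AIL, AR1-651, and AR1-651 with AIL. CDC6, which loads the replicative helicase, had 8.63, 9.79, 17.3 and 8.98. Both peaked in the AR1-651 library, at levels above those of WNT10A. That peak and its similar step followed from how the genes were picked, by likeness to WNT10A on log2(RPKM + 1). That scale understates changes at low values. The plain ratio of AR1-651 to empty vector was larger for WNT10A, at 2.64, than for ANAPC11 or CDC6. None of the 5 is among the pathway genes listed. RHAG, at 0.1, 0.21, 1.02 and 0.18 RPKM in that order, passed the filter through the AR1-651 library alone. Its peak there was thus fixed by the filter.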

How the data were processed

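RNA-seq of 4 LNCaP libraries was analysed, 1 per group, with groups taken from the labels. The deposited tables give RPKM per gene, computed by the authors and rounded to 2 decimals. The submitters' processing notes name BWA 0.7.10-r789 and hg19; the annotation and whether counting used strand are not given in the sources used here. The tables hold no comparison columns. The labels and methods name a kit that depletes ribosomal RNA from total RNA, and the labels also describe oligo(dT) selection of mRNA; which was used is unclear.

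Of 19801 genes, 19703 had a symbol in RefSeq tables. Changes are differences of log2(RPKM + 1), a pseudocount of 1, among the 14626 genes that reached 1 RPKM in some library. A call is a change of at least 2-fold on that scale, with no replicate check. Transcript lengths and coordinates are from GENCODE release 29 (GRCh38), a different build from that of the files, with the longest RefSeq-matched transcript per gene; 95.8% of the 14626 genes had one. Promoter windows are from RefSeq (GRCh38.p14). The depth was estimated from low RPKM of single-transcript genes, as the value for which reads were nearest to whole (51.2% to 54.2% within 0.1 of a whole number, against 20% for a flat spread). On simulated data with 4 depths and 9934 genes the largest error was 0.75%. The simulation drew reads with the same lengths that the estimate used. It therefore does not cover error from lengths that differ from those of the authors. Intervals are exact 95% intervals for a ratio of Poisson counts. The trend with length and GC was a polynomial of degree 3 over all genes with a length.

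The members and lists were chosen with earlier results of these data known. Genes named in the text are the 10 members, pathway genes that passed the filter and were called in any comparison, the 5 genes with the profile nearest to WNT10A, and KLK3, KLK2 and TMPRSS2; 1 further item is not reported here. Others, such as KRT14 and WNT7B, give context and were chosen after their values were seen. The alternatives tried were removing the trend, calls at 1.5-fold, dropping the filter or raising it to 5 RPKM, adding 0.1 instead of 1, scaling by median ratios, and totals without the 85 ribosomal protein genes. Python 3.11.15, NumPy 2.4.6, SciPy 1.17.1, pandas 2.3.3 and matplotlib 3.10.9 were used.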

Additional observations from a re-analysis of the deposited data

Results flagged for a closer look

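For 4 of the 10 genes the change with AIL had opposite signs in empty vector and AR1-651 cells. The share of all genes with opposite signs was not counted, so whether 4 of 10 is unusual is not known. The change in AR1-651 cells minus that in empty vector cells, on log2(RPKM + 1), was 1.95 for APC, 1.45 for LRP6, 0.44 for RNF43 and -0.92 for WNT10A. For all 10 genes the median of this difference was 0.08, and for all 14626 genes it was 0.14. APC, LRP6 and RNF43 were lower with AIL in empty vector cells and higher with AIL in AR1-651 cells, and WNT10A showed the reverse. For APC and LRP6 both counting intervals lay clear of 1. For RNF43 both included it (0.613 to 1.02 in empty vector and 0.787 to 1.93 in AR1-651 cells), and for WNT10A the interval in empty vector cells did. With 1 library per group the difference was not tested. LRP6 and APC have the longest transcripts of the 10 genes and the lowest GC content, at 40.2% and 39.6%. Removing the length and GC trend left an AIL change in AR1-651 cells of 0.27 for LRP6 and 0.71 for APC.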

How the results depend on the processing

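No paired analysis was possible because each group has 1 library, and for the same reason no library could be left out in turn. The members called, higher and lower, were 0 and 4 for AR1-651 against empty vector, 0 and 0 for AIL in empty vector cells, 1 and 0 for AIL in AR1-651 cells, and 0 and 1 for AR1-651 among AIL-treated cells. With a pseudocount of 0.1 the first comparison had 1 higher and 5 lower, the third 3 higher and 1 lower, and the fourth 4 lower. Median-ratio scaling gave 1 higher and 3 lower in the first and 0 lower in the fourth. At 5 RPKM only 4 of the 10 genes (AXIN1, CTNNB1, RNF43 and LRP6) remained in the set, with 2 lower in the first and 0 higher in the third. No gene that remained lost a call. At 1.5-fold there were 2 higher and 7 lower in the first, 1 higher in the second, 3 higher and 1 lower in the third, and 4 lower in the fourth. With the length and GC trend removed there were 1 higher and 0 lower in the first, 0 higher in the third and 0 lower in the fourth, and the members' median in the second went from -0.0252 to 0.0548.

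For the other pathway genes, with comparisons in the same order, the pseudocount of 0.1 gave 22 lower in the first, 5 higher in the second, 8 higher and 10 lower in the third, and 9 lower in the fourth. Median-ratio scaling gave 5 lower in the first and 3 in the fourth, and a median of -0.0332 in place of 0.11 in the third. RPKM of at least 5 gave 0 higher in the second. At 1.5-fold there were 33 lower in the first, 9 higher and 18 lower in the second, 17 higher and 12 lower in the third, and 22 lower in the fourth. Without ribosomal protein genes there were 19 lower in the first, 2 higher in the second and 6 higher in the third. With the trend removed there were 2 lower in the first, 4 higher in the second and 0 lower in the fourth, with medians of -0.19 in the first and 0.0610 in place of -0.0567 in the second. The median difference of the AIL changes of the 10 genes, 0.08, became -0.0469 with scaling and -0.11 with the trend removed. Dropping the filter moved no count or median by this measure. At this depth genes such as WNT10A and TCF7L2 rest on few reads, and only large ratios clear the counting error. The causes of these shifts were not tested.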

Other observations

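Some listed genes fell short of the 2-fold threshold on log2(RPKM + 1) with AIL yet were higher with it in both backgrounds. They were chosen after their values were seen. The Notch ligand gene JAG1, a common WNT target, had an RPKM of 13.9 with empty vector and 28.6 with empty vector and AIL, and 15.9 with AR1-651 and 31.5 with AR1-651 and AIL, with log2 changes of 0.99 and 0.94. BMP4, which encodes a growth factor of the BMP family, went from 0.11 to 1.19 RPKM and from 0.21 to 1.31, changes of 0.98 and 0.93, but it passed the filter through the AIL libraries alone, which fixed its direction. The receptor gene FZD8 went from 1.23 to 3.41 and from 0.97 to 2.83, changes of 0.98 and 0.96. The ligand gene WNT4 went from 1.5 to 3.21 and from 0.55 to 1.78, changes of 0.75 and 0.84. The cell cycle gene CCND1, another common target, moved the other way, from 105 to 82.2 RPKM with empty vector and from 105 to 64.5 with AR1-651.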
